A study of Mus musculus with 30 samples.

Results

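Immediate early and AP-1 genes were examined in the blood of male C57BL/6J mice of 3 genotypes, labelled p38WT, p38DKI and p38DN. The members were Fos, Fosb, Jun, Junb, Jund, Egr1, Egr2, Egr3, Atf3 and Ier2, found as the non-control array probes whose gene name was a member, so that 10 of 29654 named genes and unnamed features on the array were studied. The 6 groups, each of 5 independent experiments with 1 array each, were p38WT unirradiated, p38WT irradiated, p38DKI unirradiated, p38DKI irradiated, p38DN unirradiated and p38DN irradiated. Irradiated mice had received 7 Gy of x-rays, and blood was drawn by cardiac puncture 24 h later, into a stabilising lysis solution. The labels name the genotypes by these letters alone, and give neither the alleles, nor the age of the mice, nor whether a sample pooled animals; each array is called a mouse below. The genotypes bear on p38, a stress-activated mitogen-activated protein kinase.

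Immediate early genes are transcribed within minutes of a stimulus from factors that are already present in the cell, and their messages are mostly short-lived. Many of the proteins they encode are transcription factors: Fos and Jun family proteins pair through leucine zippers to form the AP-1 dimer, and Egr proteins bind GC-rich sites through zinc fingers. In blood leukocytes they are known as markers of activation and of stress, and p38 acts on several of the kinases and factors that switch them on. A sample taken 24 h after a stimulus is far from the first burst of transcription.

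Short stretches before the transcription start are shown for some of the members that moved with irradiation or with each other, since these genes are known for the sites they share there. The promoters are those of RefSeq on build GRCm38.p6, in which 7 of the 10 members matched (Atf3, Egr2, Fos, Fosb, Jun, Junb and Jund). Capitals mark matches on either strand to TGACG (the core of the cyclic AMP response element), TGACNTCA, TGANTCA (the AP-1 site), the CArG box (the serum response factor site) or TATAAA, and a TGACG inside a TGACNTCA would count for both. Each run is written 5′ to 3′ on the strand of the gene and ends at the base before the start, except for Egr2, where a stretch of 30 bases is shown.
Fos: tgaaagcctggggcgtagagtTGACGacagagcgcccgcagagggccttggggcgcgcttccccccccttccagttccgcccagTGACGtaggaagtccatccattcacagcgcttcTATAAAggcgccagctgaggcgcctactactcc
Jun: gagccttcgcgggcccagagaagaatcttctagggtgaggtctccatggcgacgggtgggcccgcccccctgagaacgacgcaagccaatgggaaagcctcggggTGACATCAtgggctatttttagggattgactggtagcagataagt
Junb: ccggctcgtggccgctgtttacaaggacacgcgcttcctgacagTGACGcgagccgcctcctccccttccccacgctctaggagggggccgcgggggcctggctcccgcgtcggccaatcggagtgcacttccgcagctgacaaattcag
Atf3: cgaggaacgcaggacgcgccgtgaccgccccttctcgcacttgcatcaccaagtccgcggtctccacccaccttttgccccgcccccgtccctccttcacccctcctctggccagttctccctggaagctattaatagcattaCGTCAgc
Egr2: gtCCATATATGGgcagcgaCGTCAcgggta
The Fos stretch, chr12:85473740-85473889 on the plus strand, held TGACG at 129 to 125 and at 66 to 62 bases before the start, and TATAAA at 33 to 28 bases. The Jun stretch, chr4:95052223-95052372 on the minus strand, held TGACATCA at 45 to 38 bases before the start. In Junb (chr8:84978749-84978898, minus strand) a TGACG began 106 bases before the start, and in Atf3 (chr1:191183334-191183483, minus strand) the reverse complement CGTCA lay at 7 to 3 bases. The Egr2 stretch (chr10:67537795-67537824, plus strand) held a CArG box at 72 to 63 bases and CGTCA at 55 to 51 bases before the annotated start at 67537869. Within the 250 bases before the start, 17.7% of 32817 promoters held TGACG, 7.49% TGACNTCA, 6.75% TGANTCA, 1.47% a CArG box, 12.4% TATAAA and 4.7% the Egr-type GCGNGGGCG, which among these members was found in Fosb. Jund, whose stretch is not shown, held no match to any of these sequences in the 250 bases. Fosb, also not shown, held TGACG at 60 to 56 bases before the start. These matches describe letters and were not tested as sites.

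Each member had 1 probe on the array. By the array design's own mm9 positions, the probes lay at chr12:86817900-86817959 for Fos, chr7:19888168-19888227 for Fosb, chr4:94716928-94716987 for Jun, chr8:87501881-87501940 for Junb, chr8:73224436-73224495 for Jund, chr10:67004798-67004857 for Egr2, chr14:70479222-70479281 for Egr3, chr1:192994547-192994606 for Atf3 and chr8:87186214-87186273 for Ier2. The Fos probe was spotted 10 times and the spots were averaged. A level below is the log2 of the scanner's processed signal minus the 75th percentile of the array, so 0 is that percentile; levels of different probes cannot be set against each other. Genes entered the test when 4 or more of the 5 arrays in some group detected the probe well above background, which kept 18724 genes, 9 of the 10 members among them. Changes were tested with limma, and a gene was called at an adjusted p (Benjamini-Hochberg over the 18724) under 0.05.

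Between 39.2% and 63.2% of probes were well above background per array. The p38WT arrays were on slides 1 to 3 and the p38DKI arrays on slides 3 to 5, all of 1 scan day, with slide 3 holding irradiated p38WT and unirradiated p38DKI arrays, while the p38DN arrays were on slides 6 to 10, scanned on 5 other days, so slide and genotype cannot be told apart between p38DN and p38WT. At either dose p38WT and p38DKI arrays shared no slide, so that comparison is not balanced over slides either. Markers of blood cells were present: all 6 erythroid, 8 neutrophil, 7 B cell and 7 T cell markers were kept. Markers of liver stood out on some arrays, with a mean level of 13 genes of 9.27 on p38DKI irradiated array 2 and of 7.29 to 8.21 on p38DN unirradiated arrays 2, 4 and 5, against -2.5 to 0 on the p38WT arrays. Heart muscle markers were highest on p38WT irradiated array 2, p38DN irradiated array 3 and p38WT unirradiated array 1. Irradiation lowered all 7 B cell markers in each genotype (median log2 change -4.26 in p38WT, -4.52 in p38DKI and -2.93 in p38DN) and raised 8, 6 and 1 of 8 neutrophil markers, so RNA markers of blood cell types moved with the dose.

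**Figure D1:**
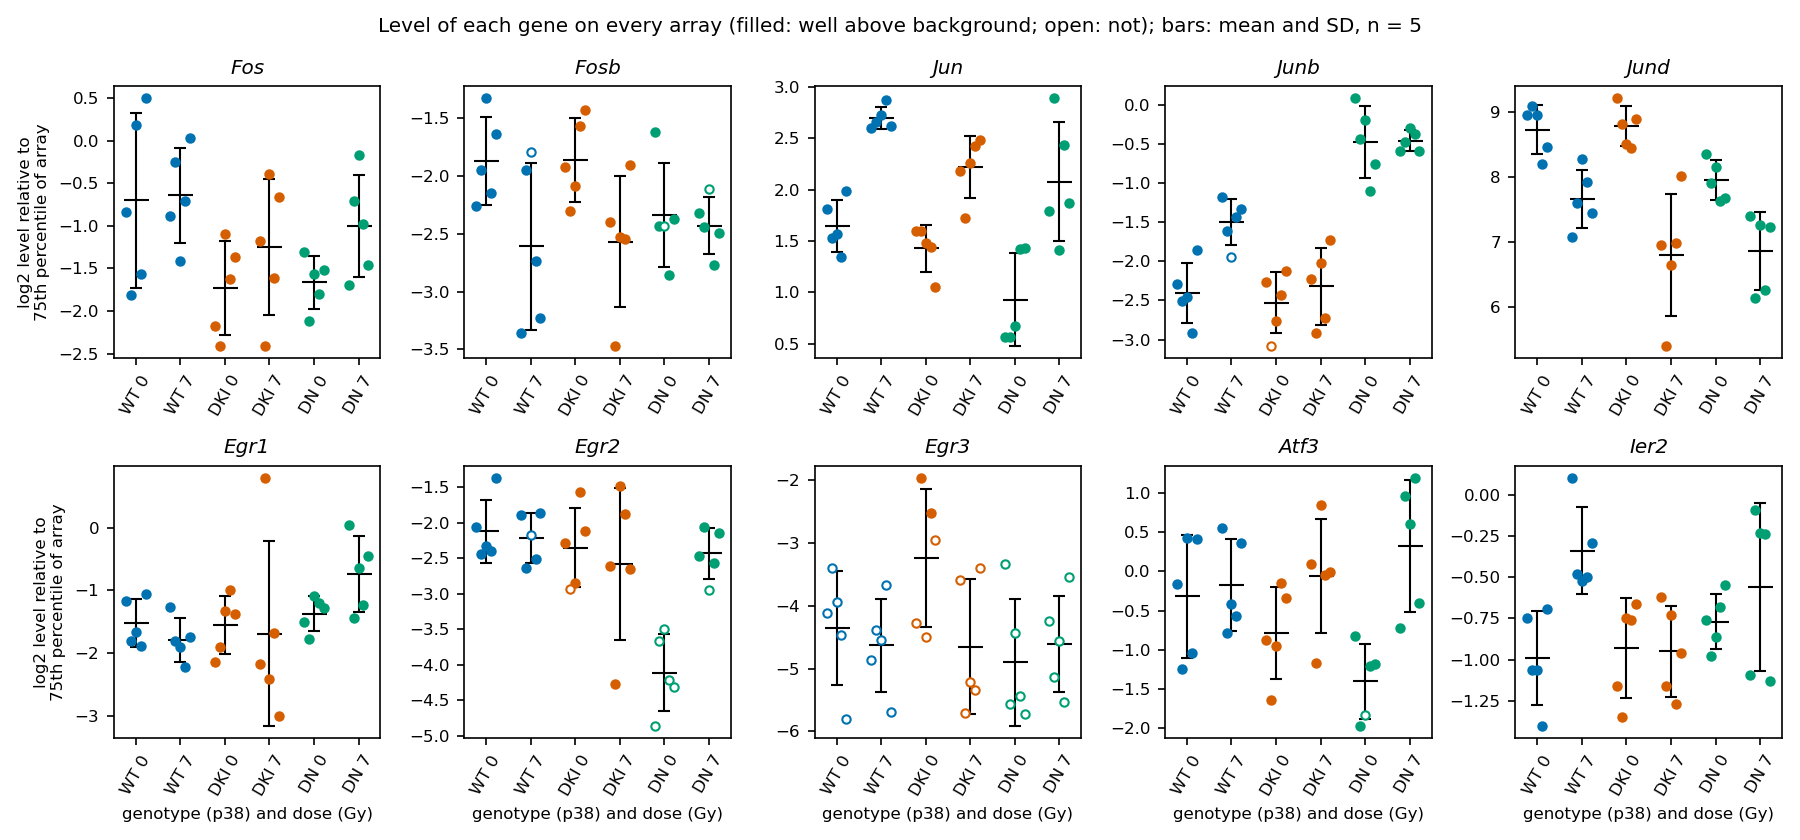
Level of each of the 10 genes on every array, as log2 relative to the array's 75th percentile, by genotype and dose in Gy; filled points were well above background, open points were not, and bars show the mean and SD of 5 mice. Jun was higher and Jund lower after 7 Gy in each genotype, and Egr2 was open on all 5 p38DN unirradiated arrays.

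After 7 Gy, the Jun family moved in opposite directions: Jun, the main AP-1 activator of the family, rose in all 3 genotypes, and Jund, the member with high steady expression in resting cells, fell in all 3. Junb and Ier2 rose in p38WT, and Egr2 and Atf3 rose in p38DN. Of the 9 members tested, 3 were called higher and 1 lower in p38WT, where 27.1% of all genes were called (15% higher, 12.1% lower). In p38DKI 1 was called higher and 1 lower, against 31.3% of all genes (12.1% higher, 19.3% lower), and in p38DN 3 were called higher and 1 lower, against 27.9% (17.6% higher, 10.3% lower). The shares of members called, between 2 and 4 of 9, are to be read against these shares of all genes. Their median log2 change was 0.06, -0.02 and 0.63, beside -0.03, -0.25 and 0.01 over all genes. Arrays of the doses did not overlap for Jun and Ier2 in p38WT (24.3% of all genes without overlap, 12.9% higher), for Jun and Jund in p38DKI (19.7%, of them 7.23% higher and 12.5% lower) and for Jund, Egr2 and Atf3 in p38DN (20.1%, of them 12.4% higher and 7.67% lower). Scaling moved the p38WT split: scaling to the array median, to the percentile over probes well above background on all arrays, or using the deposited log2 values called 2 higher and 2 lower each, and no scaling called 0 higher and 2 lower. In p38DKI, the percentile over probes well above background on all arrays called 1 higher and 2 lower, and no scaling 3 higher and 1 lower. That last setting also moved the median of all genes to -0.46 in p38WT and 0.37 in p38DKI.

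**Figure D2:**
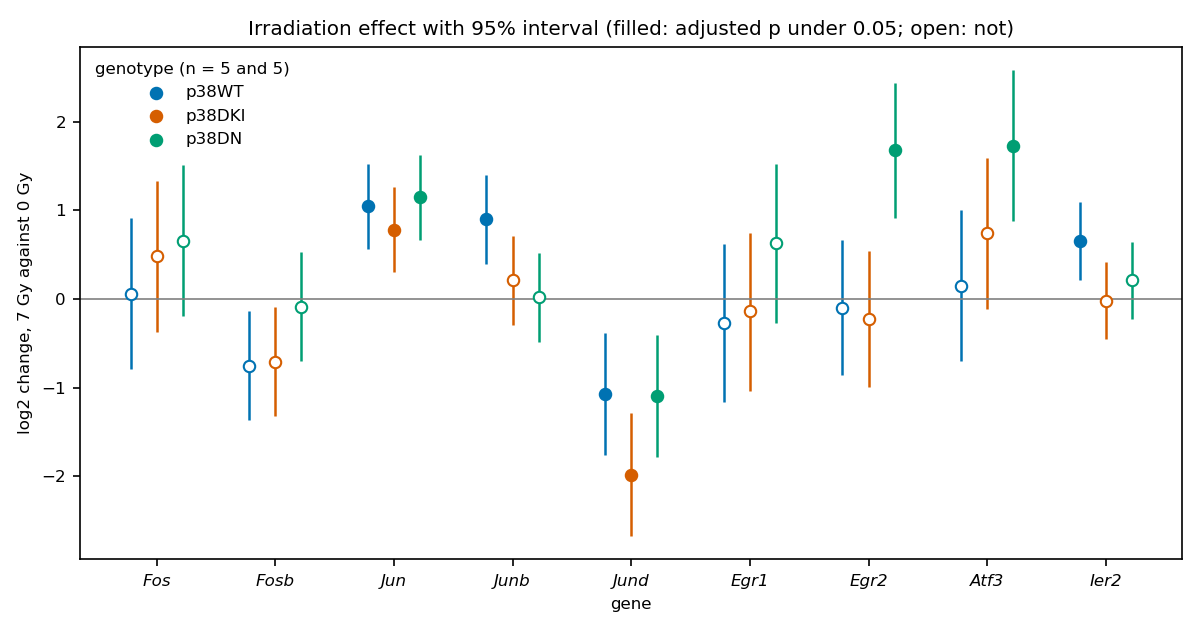
Log2 change of 9 genes between 7 Gy and 0 Gy in the 3 genotypes (5 mice per dose), with 95% intervals from the limma fit; filled points had an adjusted p under 0.05. Jun lies above 0 and Jund below 0 in each genotype, while Egr2 and Atf3 are filled for p38DN alone.

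Jun lay at 1.81, 1.53, 1.57, 1.35 and 1.99 in unirradiated p38WT mice and at 2.6, 2.66, 2.73, 2.87 and 2.62 after irradiation. The irradiated mice were all higher and stood close together. The rise was 1.05 on the log2 scale (SE 0.231, 2.07-fold; limma adjusted p = 0.00125). In p38DKI mice the levels were 1.6, 1.6, 1.48, 1.44 and 1.05 without irradiation and 2.18, 1.73, 2.26, 2.43 and 2.48 with it, again without overlap. That change was 0.78 (SE 0.231, 1.72-fold; limma adjusted p = 0.0115). The p38DN mice had 0.57, 0.57, 0.67, 1.42 and 1.43 unirradiated against 1.79, 2.89, 1.41, 2.44 and 1.87, where the lowest irradiated mouse lay just under the highest unirradiated ones. Here Jun rose by 1.15 (SE 0.231, 2.22-fold; limma adjusted p = 0.000477), and it was higher in the irradiated mouse on all 5 slides that held both doses, by 0.44 to 2.32. In whole blood, a change in the number of cells of a type and a change in RNA per cell cannot be told apart.

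Only 1 slide held both doses of p38WT (3 irradiated and 1 unirradiated arrays), and Jun differed by 0.68 within it; for p38DKI the only such slide gave 0.86. With slide as a fixed block, which called 163 and 680 of all genes, the Jun calls ended (limma adjusted p = 0.545 in p38WT and 0.247 in p38DKI). Without scaling, which called 0 members higher in p38WT, the Jun call there ended too. Under another background correction, normexp, all 3 ended, with changes of 0.42, 0.74 and 0.86 (limma adjusted p = 0.291, 0.0943 and 0.0905). Normexp here added an offset of 50 to each signal, which shrinks the log2 changes of dim probes. The processed Jun signals lay above that offset on every array, from 64.5 to 762. Why the Jun calls ended with normexp was not tested. The mean level of the 8 neutrophil markers moved beside Jun, from a median of 3.5 to 5.63 in p38WT, 3.29 to 4.64 in p38DKI and 2.71 to 3.83 in p38DN, where 1 of the 8 was called. Platelet markers rose too, from 6.41 to 7.79, 6.17 to 7.14 and 6.03 to 7.62, as did NK cell markers. After group means were subtracted, Jun and the neutrophil markers had r = 0.273 (permutation p adjusted over 90 relations 0.466). It was 0.706 within p38WT and p38DKI arrays and -0.0619 within p38DN arrays. The part of these markers in the Jun change was not tested. Ordered by mean, Jun was highest in p38WT irradiated blood (2.7 ± 0.109, SD, n = 5) and lowest in p38DN unirradiated blood (0.93 ± 0.45, SD, n = 5). In between came p38DKI irradiated, p38DN irradiated, p38WT unirradiated and p38DKI unirradiated, which differed between neighbours among these 4 by less than the larger SD, while both ends of the order lay apart from their neighbour by more.

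Jund was at 8.96, 9.09, 8.96, 8.2 and 8.46 in unirradiated p38WT blood and at 7.08, 7.6, 8.27, 7.92 and 7.44 after 7 Gy. A single irradiated mouse, at 8.27, reached into the unirradiated range. It fell by 1.07 on the log2 scale (SE 0.337, 2.1-fold; limma adjusted p = 0.0187). The p38DKI levels went from 9.21, 8.81, 8.51, 8.45 and 8.89 to 6.95, 5.4, 6.65, 6.99 and 8.01, with no overlap and with 1 mouse far below the rest. This was the steepest of the 3 falls, -1.98 (SE 0.337, 3.93-fold; limma adjusted p = 9.37e-05). In p38DN the levels went from 8.36, 7.9, 8.15, 7.63 and 7.68 to 7.4, 6.14, 7.26, 6.26 and 7.23. All 5 irradiated mice were lower, the change was -1.09 (SE 0.337, 2.13-fold; limma adjusted p = 0.0163), and it was negative on all 5 shared slides, from -1.77 to -0.45.

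The mouse at 5.4 was p38DKI irradiated array 2, the array with the highest liver markers; without the 4 arrays highest in liver markers the p38DKI change was -1.63 (limma adjusted p = 0.000336). The p38WT call ended without unirradiated array 2 (-0.98, limma adjusted p = 0.0503) or irradiated array 1 (-0.93, adjusted p = 0.0554), and also without the 3 arrays highest in heart muscle markers (-1, adjusted p = 0.0712). The p38DN call ended without irradiated array 2 (-0.91, limma adjusted p = 0.0575) or 4 (-0.94, adjusted p = 0.0548), or with normexp correction (-0.6, adjusted p = 0.975). Within the slides that held both doses, the difference was -0.81 in p38WT and -1.67 in p38DKI, and slide as a fixed block ended both calls (limma adjusted p = 0.696 and 0.164). Normexp correction ended the p38DKI call as well (-1.6, limma adjusted p = 0.0992).

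Jund moved beside the erythroid markers, which encode globins and red cell membrane and heme proteins. Of 6 such markers, 3 fell in p38WT, 5 in p38DKI and 4 in p38DN, and their mean level fell from a median of 8.22 to 7.19, from 8.25 to 6.34 and from 8.85 to 6.9. Within groups the tie was also seen: after group means were subtracted, Jund and the mean of the 6 markers correlated over 30 mice (Pearson r = 0.827, Spearman rho = 0.705; permutation within groups, p = 1e-05 and 7e-05, adjusted over 90 gene and marker list relations 0.0009 and 0.0063). The value 1e-05 is the smallest these permutations can give. Without the 2 mice farthest out r was 0.645, and it was 0.865 within the p38WT and p38DKI arrays and 0.714 within the p38DN arrays. No other of the 90 relations had an adjusted p under 0.05; the next were Jund with platelet markers (r = 0.711, permutation p adjusted 0.0717) and with NK cell markers (r = 0.708, permutation p adjusted 0.0717). Erythroid markers were not alone in falling after irradiation. All 7 B cell markers fell in each genotype, as did 4, 7 and 4 of 7 T cell markers, while platelet and NK cell markers rose. The part of red cell RNA, or of RNA of other cells, in the Jund change was not tested.

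**Figure D3:**
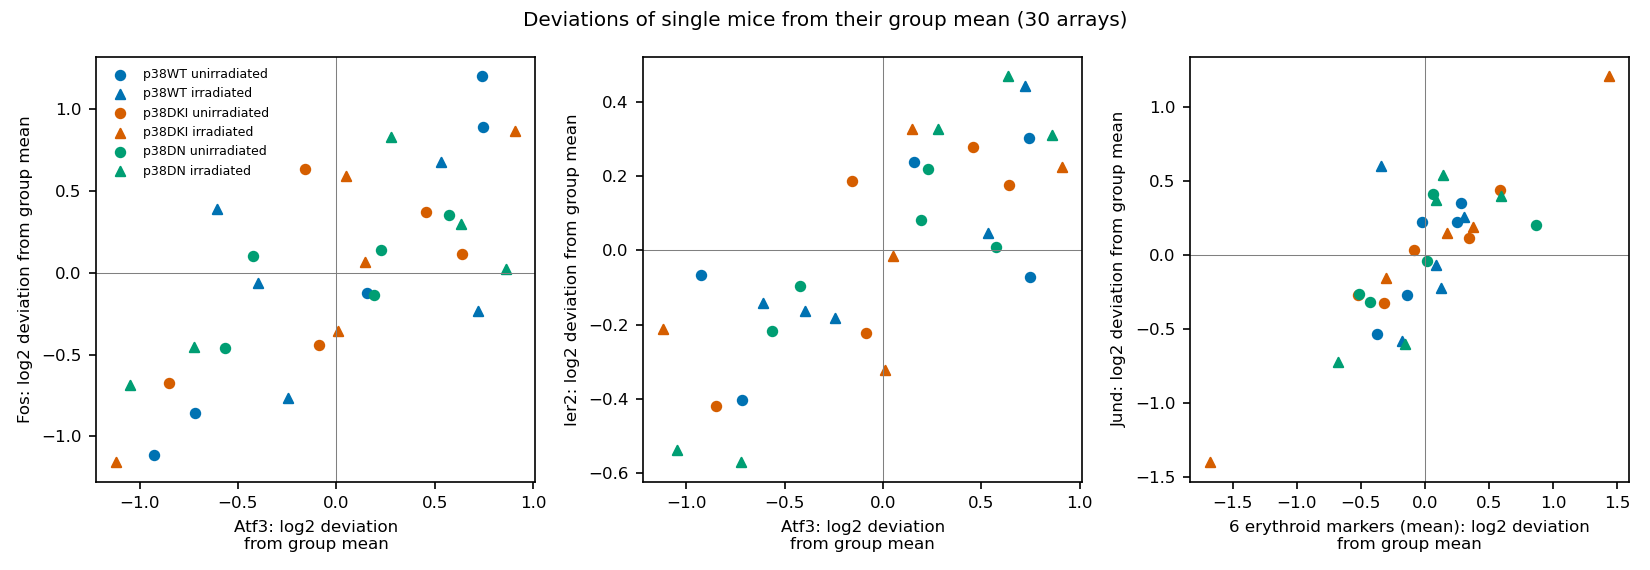
Deviation of each of 30 mice from its group mean, in log2 units, for Fos against Atf3, Ier2 against Atf3 and Jund against the mean of 6 erythroid markers; colours mark genotype, and triangles mark irradiated mice. Mice high in Atf3 for their group were mostly high in Fos and Ier2, and Jund followed the erythroid markers, with the 2 most distant points both from irradiated p38DKI mice.

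Junb encodes a Jun family protein that can restrain Jun and is prominent in myeloid cells. It lay at -2.29, -2.51, -2.45, -2.91 and -1.85 in unirradiated p38WT mice and at -1.18, -1.61, -1.95, -1.43 and -1.33 after irradiation. Only the irradiated mouse at -1.95, whose probe was not well above background, fell into the other range. The rise was 0.9 (SE 0.242, 1.87-fold; limma adjusted p = 0.00637), but 0.46 (adjusted p = 0.151) with normexp, 0.47 (adjusted p = 0.235) without scaling, and 0.27 (adjusted p = 0.9) with slide as a fixed block. In p38DKI the levels were -2.26, -3.08, -2.76, -2.43 and -2.13 against -2.23, -2.91, -2.02, -2.72 and -1.73, which overlapped throughout. There the change was 0.21 (SE 0.242; limma adjusted p = 0.512). In p38DN, Junb was at 0.08, -0.44, -0.19, -1.1 and -0.76 before and -0.59, -0.48, -0.3, -0.37 and -0.59 after irradiation, a change of 0.02 (SE 0.242; limma adjusted p = 0.966). In order of mean, Junb was highest in both p38DN groups, then in irradiated p38WT, and the other 3 groups, each differing from the next among them by less than the larger SD, lay lowest; irradiated p38WT lay above the first of these, irradiated p38DKI, by 0.822 against a larger SD of 0.488. The irradiated p38DN mice lay closer together than the unirradiated ones (SD 0.13 against 0.461, n = 5 each).

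Ier2 encodes a nuclear protein induced by growth factors. In p38WT it went from -0.75, -1.06, -1.06, -1.4 and -0.69 to 0.1, -0.48, -0.52, -0.5 and -0.29, with every irradiated mouse above every unirradiated mouse. The rise was small, 0.65 (SE 0.21, 1.57-fold; limma adjusted p = 0.021). It did not pass when scaled to the array median (0.65, adjusted p = 0.147), with the deposited values (0.57, adjusted p = 0.0888), without scaling (0.23, adjusted p = 0.662), with the percentile over probes well above background on all arrays (0.46, adjusted p = 0.102), with slide as a fixed block (0.39, adjusted p = 0.771), or without unirradiated array 4 (0.55, adjusted p = 0.0729) or irradiated array 1 (0.54, adjusted p = 0.0669). The p38DKI levels, -1.16, -1.35, -0.75, -0.76 and -0.66 against -0.62, -1.16, -0.73, -1.27 and -0.96, lay over each other, with a change of -0.02 (SE 0.21; limma adjusted p = 0.96). In p38DN the unirradiated mice lay between -0.98 and -0.55, and the irradiated mice split on either side of them, at -1.09, -0.09, -0.23, -0.24 and -1.13 (change 0.21, SE 0.21; limma adjusted p = 0.491).

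Fos, the classical partner of Jun, did not pass the test for irradiation in any genotype. Its levels varied widely between mice of a group: unirradiated p38WT mice lay at -0.83, -1.81, 0.19, -1.56 and 0.5, an SD of 1.03 on the log2 scale. The irradiated p38WT mice, at -0.88, -0.25, -1.41, -0.71 and 0.04, lay within that range, and the change was 0.06 (95% interval -0.79 to 0.91; limma adjusted p = 0.933). In p38DKI the levels were -2.18, -2.41, -1.1, -1.62 and -1.36 without and -1.18, -2.41, -0.39, -1.61 and -0.66 with irradiation. Both p38DKI groups spread widely, and the change was 0.48 (95% interval -0.37 to 1.33; limma adjusted p = 0.369). The p38DN mice went from -1.31, -2.12, -1.56, -1.8 and -1.52 to -1.69, -0.71, -0.17, -0.98 and -1.46, a change of 0.66 (95% interval -0.19 to 1.51; limma adjusted p = 0.248). The upper ends of these intervals, 0.91, 1.33 and 1.51, show the size of rise that the spread between mice could hide. Along the order of group means no neighbours differed by more than the larger of their SDs.

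Fosb, a Fos family protein that also pairs with Jun proteins, ranged from -2.26 to -1.33 in unirradiated and from -3.36 to -1.79 in irradiated p38WT blood, and from -2.3 to -1.43 and from -3.47 to -1.91 in p38DKI blood. The groups overlapped in both. The changes were -0.75 (SE 0.299; limma adjusted p = 0.0638) in p38WT and -0.71 (SE 0.299; limma adjusted p = 0.0707) in p38DKI, close to the threshold. In p38WT Fosb passed it under several alternatives, among them array median scaling (-0.75, adjusted p = 0.0369) and the deposited values (-0.83, adjusted p = 0.0124), while with normexp correction it was 0.14 (adjusted p = 0.675). In p38DN the range was -2.86 to -1.62 before and -2.77 to -2.11 after irradiation, and the change was -0.09 (SE 0.299; limma adjusted p = 0.866). Fosb and Jund deviated together within groups (r = 0.633, rho = 0.51; permutation p adjusted over 36 pairs of members 0.009 and 0.0401; r = 0.504 without the 2 mice farthest out, 0.645 within p38WT and p38DKI arrays, 0.601 within p38DN arrays).

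Atf3, a stress-induced factor that pairs with Jun proteins, had its highest group mean in irradiated p38DN blood (0.32 ± 0.843, SD, n = 5) and its lowest in unirradiated p38DN blood (-1.4 ± 0.478, SD, n = 5), and only that lowest mean lay below its neighbour, p38DKI unirradiated, by more than the larger SD. Unirradiated p38DN mice had levels of -0.83, -1.97, -1.83, -1.21 and -1.18, and irradiated ones -0.72, 0.96, 0.6, 1.19 and -0.4. The doses did not overlap, although the irradiated mouse at -0.72 lay only slightly above the unirradiated mouse at -0.83. The rise was 1.73 (SE 0.415, 3.32-fold; limma adjusted p = 0.00245), and within the 5 shared slides it was 0.11, 2.93, 2.43, 2.4 and 0.78. In p38WT the levels were -0.16, -1.25, 0.43, -1.04 and 0.42 against 0.55, -0.78, -0.42, -0.57 and 0.36, with a change of 0.15 (SE 0.415; limma adjusted p = 0.837). The p38WT mice of either dose covered about the same range. In p38DKI they were -0.88, -1.64, -0.95, -0.15 and -0.34 against 0.09, -1.17, 0.85, -0.05 and -0.01, and the change of 0.74 (SE 0.415; limma adjusted p = 0.17) did not pass.

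Egr2, a zinc-finger factor known in myeloid and lymphoid differentiation, was dim in unirradiated p38DN blood, where its probe was not well above background on any of the 5 arrays (-4.86, -3.67, -3.49, -4.22 and -4.31). After irradiation it was well above background on 4 of the 5, at -2.46, -2.06, -2.95, -2.56 and -2.14. All irradiated mice lay above all unirradiated mice. Since the dim group gives only a bound, set against the lowest signal well above background on each array, Egr2 was at least 1.54-fold higher after irradiation (measured means -2.43 and -4.11; log2 change 1.68, SE 0.372; limma adjusted p = 0.00121). Within the shared slides the difference was 2.41, 1.62, 0.54, 1.66 and 2.16. Both other genotypes already had Egr2 near that level without irradiation, at -2.06, -2.44, -2.33, -2.39 and -1.37 in p38WT and -2.28, -2.93, -2.85, -1.57 and -2.12 in p38DKI. Their irradiated mice overlapped with these, from -2.63 to -1.86 in p38WT (change -0.1, SE 0.372; limma adjusted p = 0.884) and from -4.27 to -1.48 in p38DKI (change -0.23, SE 0.372; limma adjusted p = 0.651).

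The p38DN calls were lost under 1 processing choice: with normexp correction the changes were 0.04 for Egr2 (limma adjusted p = 0.992) and 0.55 for Atf3 (adjusted p = 0.262). Both calls were kept in the other 15 alternatives run. The processed Egr2 signals in p38DN, 1.49 to 8.42 unirradiated and 8.14 to 20.7 irradiated, lay under the offset of 50 that normexp added. That setting therefore cannot decide whether Egr2 changed. Liver markers also differed between the p38DN groups, with a median level of 7.29 unirradiated and 1.96 irradiated. Without the 4 arrays highest in them, 3 of which were p38DN unirradiated, the changes were 1.74 for Egr2 (limma adjusted p = 0.00281), 1.66 for Atf3 (adjusted p = 0.0244), 1.46 for Jun (adjusted p = 0.000395) and -1.4 for Jund (adjusted p = 0.00847).

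**Figure D4:**
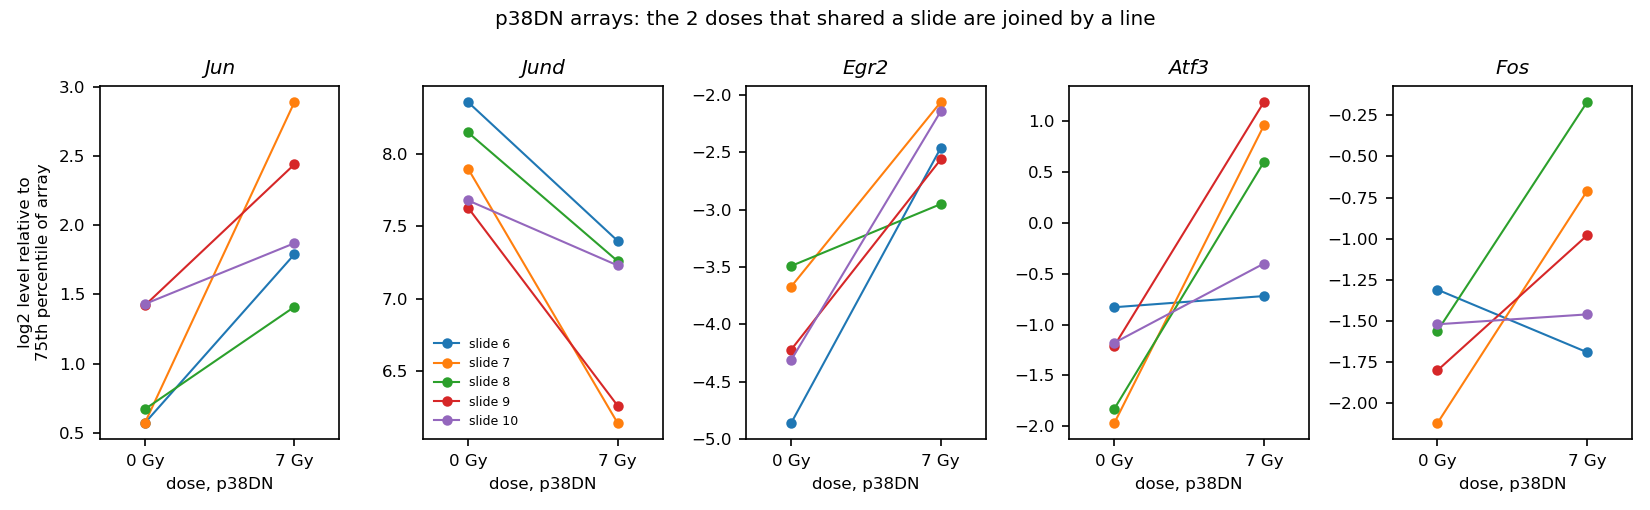
Levels of Jun, Jund, Egr2, Atf3 and Fos in p38DN blood, as log2 relative to the array's 75th percentile; each line joins the unirradiated and the irradiated mouse whose arrays shared a slide. Jun, Egr2 and Atf3 rise and Jund falls on all 5 slides, while Fos rises on 4 and falls on 1.

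Egr1, which carries serum response elements in its promoter and answers many stimuli, did not pass the test for irradiation in any genotype. It ranged from -1.88 to -1.05 and from -2.23 to -1.26 in p38WT (change -0.27, SE 0.436; limma adjusted p = 0.7), and from -1.78 to -1.09 and from -1.44 to 0.05 in p38DN (change 0.63, SE 0.436; limma adjusted p = 0.298). In p38DKI the irradiated mice were at -2.17, 0.79, -2.42, -1.68 and -3. The mouse at 0.79 was the array with the highest liver markers, and it was the highest Egr1 level on any of the 30 arrays. The p38DKI change was -0.14 (SE 0.436; limma adjusted p = 0.813) with that array and -0.76 without it (adjusted p = 0.0508), when the other 4 irradiated mice were compared with unirradiated levels of -2.14 to -1. Egr3 was well above background on 2 of 5 p38DKI unirradiated arrays (-1.97 and -2.52) and on 0 of the other 25, so it was not tested.

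Before irradiation, p38DKI and p38WT blood differed in few genes, 19 of 18724 or 0.101%, and 0 members were called by limma; 2.88% of all genes and 0 members had groups without overlap. At an unadjusted p under 0.05 there was 1, Fos, which was lower in p38DKI by 1.03 on the log2 scale (95% interval 0.18 to 1.88 lower, limma adjusted p = 0.534); its p38DKI range, -2.41 to -1.1, lay within the p38WT range of -1.81 to 0.5 only in part. For Jun the difference was -0.22 (95% interval -0.69 to 0.26), for Junb -0.13 (-0.63 to 0.37), for Jund 0.04 (-0.65 to 0.73) and for Ier2 0.06 (-0.37 to 0.49). The interval was widest for Jund among these 4.

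After irradiation 4.51% of genes differed between p38DKI and p38WT, 3.36% being lower in p38DKI, and of the members only Junb was called, lower in p38DKI by 0.82 (SE 0.242, 1.77-fold; limma adjusted p = 0.049). That call was lost in 12 of 16 alternatives, among them those without the liver-marked arrays (-0.68, adjusted p = 0.118), and when any of 8 of the 10 mice was left out; the range of its adjusted p was 0.0226 to 1 over the 16 alternatives. Jun (-0.48, limma adjusted p = 0.196) and Ier2 (-0.61, limma adjusted p = 0.0814) were lower in all 5 p38DKI mice than in any p38WT mouse but were not called; 6.34% of all genes had groups without overlap here, 4.51% being lower in p38DKI. Jund was lower by 0.86 (SE 0.337; limma adjusted p = 0.118), was called without p38DKI irradiated array 5 (-1.16, adjusted p = 0.033) and was -0.51 without array 2 (adjusted p = 0.395). Of 8 neutrophil markers, 4 were lower in irradiated p38DKI than in irradiated p38WT blood, and their part in these differences was not tested. No slide held irradiated mice of both genotypes, and with slide as a fixed block, which links them only through other groups, the Junb difference was -1.08 (limma adjusted p = 1). The comparison of p38DKI with p38WT shares its p38WT irradiated mice with the irradiation effect above, so the values are not separate evidence.

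The difference between the irradiation effects themselves was tested as well. For p38DKI minus p38WT, 0 members were called (0.00534% of all genes), with 1, Ier2, at an unadjusted p under 0.05 (-0.67, 95% interval -1.28 to -0.06; limma adjusted p = 0.327). The Jund difference was -0.9 (95% interval -1.88 to 0.07; limma adjusted p = 0.388) and the Junb difference -0.69 (-1.4 to 0.01; adjusted p = 0.362). For p38DN minus p38WT, 0 members were called against 1.64% of all genes, and 3 had an unadjusted p under 0.05. These were Egr2 (1.77, 95% interval 0.7 to 2.85; limma adjusted p = 0.0692), Atf3 (1.58, 0.38 to 2.79; adjusted p = 0.142) and Junb (-0.88, -1.58 to -0.18; adjusted p = 0.156). The Egr2 value takes the unirradiated p38DN signal as measured, although it was well above background on 0 of 5 arrays, so its size and interval are not exact. Egr2 passed in 4 alternatives, the lowest adjusted p being 0.0262 with only the groups of the comparison in the limma fit, and without the liver-marked arrays Egr2 (1.84, adjusted p = 0.0449) and Junb (-1.31, adjusted p = 0.0409) both passed. A call of Egr2 or Atf3 in p38DN alone is therefore not shown to differ between the genotypes at the threshold used.

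Levels in p38DN against p38WT blood rest on different slides and scan days, and the calls were many, 55.9% of all genes unirradiated (18.3% higher in p38DN, 37.6% lower) and 43.8% irradiated (16.1% higher, 27.7% lower). Without irradiation 1 member was higher in p38DN, Junb by 1.92 (SE 0.242, 3.78-fold; limma adjusted p = 2.42e-07). Lower in p38DN were Egr2, Atf3 (-1.09, adjusted p = 0.0285), Jund (-0.79, adjusted p = 0.0486) and Jun (-0.72, adjusted p = 0.0104). Egr2 was at least 1.92-fold lower (measured means -4.11 and -2.12, limma adjusted p = 6.13e-05), but 0.3 higher with normexp correction (adjusted p = 0.291). Its processed signals, 1.49 to 8.42 in p38DN and 15.2 to 39.4 in p38WT, lay under the added offset of 50, so the normexp value cannot decide the direction. Scaling to the percentile over probes well above background on all arrays called 2 higher and 1 lower. The Jund call ended when p38WT array 1, 2 or 3 or p38DN array 2, 3, 4 or 5 was left out (limma adjusted p from 0.0513 to 0.106), and the Atf3 call without p38WT array 1, 3 or 5 or p38DN array 2 or 3 (from 0.0532 to 0.0862). Over the 15 alternatives run, the Jund and the Atf3 call were each kept in 9, with adjusted p up to 0.499 and 0.612, and the Jun call in 13. Irradiated p38DN blood had more Junb (1.04, SE 0.242; limma adjusted p = 0.00102) and less Jun (-0.62, SE 0.231; limma adjusted p = 0.0318) than irradiated p38WT blood. That Jun call was kept in 6 of 15 alternatives (change from -0.63 to -0.26, adjusted p from 0.0139 to 0.432) and, among left-out arrays, ended without p38WT array 3 or 4 or p38DN array 1, 3 or 5 (limma adjusted p from 0.0521 to 0.121). Junb was thus above every p38WT array in p38DN mice of either dose, the lowest p38DN level of -1.1 lying over the highest p38WT level of -1.18; unirradiated Egr2 was below every p38WT array. Over all genes, groups did not overlap for 45% unirradiated (14.9% higher and 30.1% lower) and 29.4% irradiated (10.2% higher). Batch and genotype cannot be told apart in these comparisons.

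Members also varied together from mouse to mouse. Over the 36 pairs of the 9 members, deviations from the group means correlated most for Atf3 and Ier2 (r = 0.778, rho = 0.754; permutation p adjusted 0.00144 and 0.00216) and for Fos and Atf3 (r = 0.731, rho = 0.706; permutation p adjusted 0.00306 and 0.00738). Both held without the 2 mice farthest out (r = 0.753 and 0.675), within p38WT and p38DKI arrays (0.709 and 0.752) and within p38DN arrays (0.898 and 0.727). Fos also went with Junb (r = 0.605, rho = 0.572; permutation p adjusted 0.009 and 0.0167) and Ier2 (r = 0.591, rho = 0.589; permutation p adjusted 0.0139 and 0.0167). Junb with Atf3 (r = 0.544, rho = 0.566; permutation p adjusted 0.0156 and 0.0167) and with Ier2 (r = 0.456, rho = 0.492; permutation p adjusted 0.0278 and 0.0288) had r of 0.705 and 0.697 over the p38WT and p38DKI arrays and 0.176 and 0.0661 over the p38DN arrays; the difference was not tested. Fos, Atf3, Junb and Ier2 thus formed a set in which each pair passed, over all 30 mice. Jun, the member that rose in every genotype, was in no pair with an adjusted p under 0.05.

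The genes most like each member were sought among 14932 named genes by the correlation of their deviations over the 30 arrays, given here as a description. Closest to Fos were Dusp1, an immediate early phosphatase that inactivates p38 and its relatives (r = 0.828), Clec4e (0.82) and Lilrb4a (0.78), receptors of myeloid cells. Dusp1 was also closest to Junb (r = 0.809), followed by Pilrb2 (0.792) and Klhdc2 (0.77). Atf3 was closest to Fcgr3 (0.924), an Fc receptor of myeloid cells, Padi4 (0.892), an enzyme of neutrophils, and Lilr4b (0.871). Jund was closest to Ppp1r15a (0.957), a stress-induced phosphatase subunit, Ypel3 (0.943) and Dhrs11 (0.936). For Jun the closest were Tbkbp1 (0.775), Chil3 (0.759) and Tmem159 (0.746), for Egr2 Eid1 (0.845), Pnrc2 (0.797) and Kctd12 (0.758), and for Ier2 Acer3 (0.816), Cct4 (0.799) and Ssna1 (0.788). Egr1 had Glyctk (0.829), Dock6 (0.822) and Ddi2 (0.82), and Fosb had Olfr223 (0.775), Gm7694 (0.772) and Gm4208 (0.758). All such pairs share the same array, scaling and blood makeup.

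Other genes of the pathway were taken from 3 lists. Of 14 bZIP partners of AP-1, 12 were tested, and 6 rose in p38WT, 7 in p38DKI and 8 in p38DN, with 0 falling in any genotype (at an unadjusted p under 0.05, 7, 9 and 9 differed by limma). Over all genes, 15%, 12.1% and 17.6% were called higher and 12.1%, 19.3% and 10.3% lower. Their median log2 change was 0.65, 0.83 and 1.01, beside -0.03, -0.25 and 0.01 over all genes. Other markers rose beside them: 1, 4 and 4 of 6 skin and stromal markers (median log2 change 1.11, 3.02 and 2.07), 6, 2 and 6 of 6 platelet markers, and 5, 3 and 1 of 6 NK cell markers; their part in the rise of the partners was not tested. Partners are named below only for genotypes where they were among the 3 largest called changes, so other genotypes may share a rise. Fosl2, a Fos relative of slower kinetics, rose by 1.52 in p38WT (SE 0.302, limma adjusted p = 0.000496) and 1.38 in p38DKI (SE 0.302, adjusted p = 0.00123). Jdp2, a repressor that pairs with Jun proteins, rose by 1.33 in p38WT (SE 0.325; limma adjusted p = 0.00307) and 1.42 in p38DN (adjusted p = 0.00158), and Atf7 by 1.21 in p38WT (adjusted p = 0.023). Maf, a bZIP factor of macrophages and T helper cells, rose by 1.35 in p38DKI (SE 0.247; limma adjusted p = 0.000206) and 1.73 in p38DN (SE 0.247; adjusted p = 1.12e-05). Maf was the only partner whose irradiation effect differed between p38DN and p38WT (1.73, SE 0.349; limma adjusted p = 0.0147). This 1 of 12 stands beside 1.64% of all genes, or 307, which became 1 with normexp and 2 with slide as a fixed block. The Maf probe was well above background on 4 of 5 unirradiated p38DN arrays. Mafk was lower in irradiated p38DKI than in irradiated p38WT blood (-0.72, limma adjusted p = 0.0413). It was the 1 partner of 12 called there, beside 4.51% of all genes, 3.36% being lower. Those calls over all genes, 844, became 88 with array median scaling and 1 with normexp or slide as a fixed block. With normexp correction 1, 3 and 1 partners passed, and with slide as a fixed block 0 in p38WT and 1 in p38DKI; without the liver-marked or the heart-marked arrays the counts stayed within 1.5 times. Without scaling, 2 rose in p38WT.

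**Figure D5:**
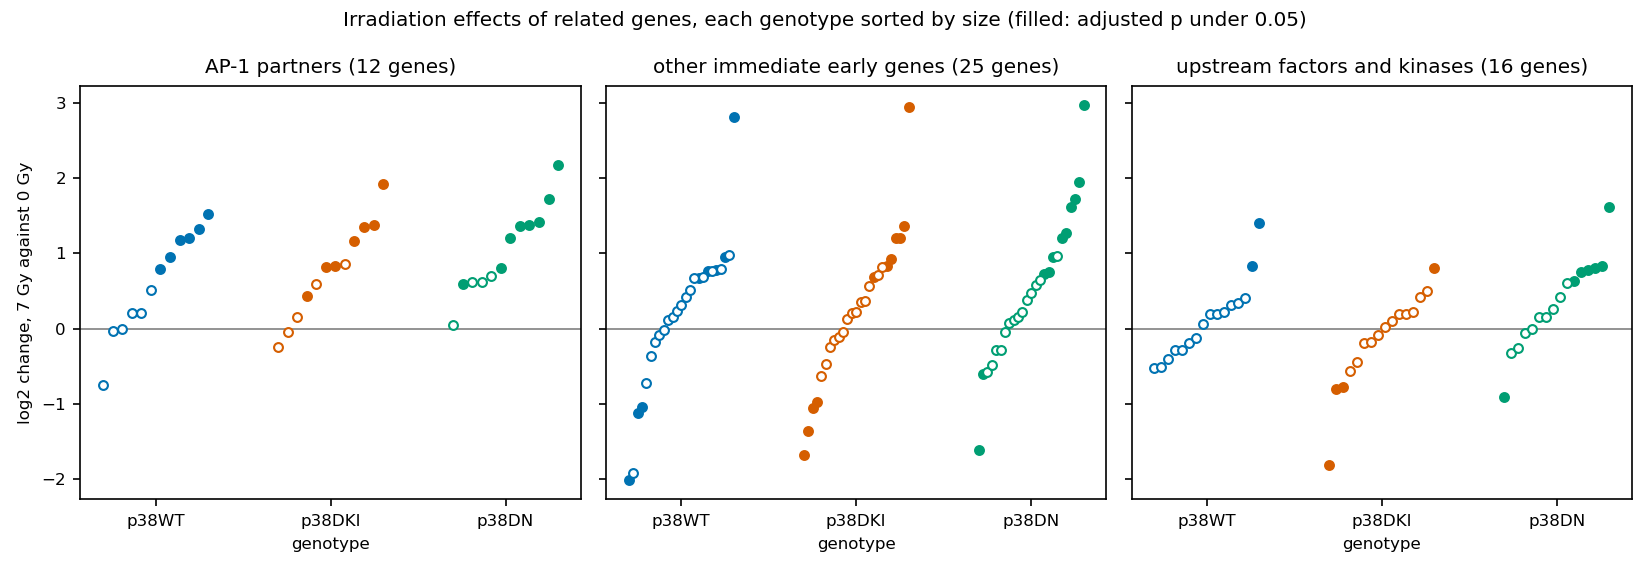
Log2 change between 7 Gy and 0 Gy of the tested genes of 3 related lists, sorted by size within each genotype; each point is a gene, filled where the limma adjusted p was under 0.05. The AP-1 partners have filled points only above 0, while the other immediate early genes have them on both sides.

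Of 30 other immediate early genes, 25 were tested: 5 rose and 3 fell in p38WT, 7 rose and 4 fell in p38DKI, and 9 rose and 2 fell in p38DN. These counts of 25 stand beside the shares of all genes called given above, 15% higher and 12.1% lower in p38WT, 12.1% and 19.3% in p38DKI and 17.6% and 10.3% in p38DN. Plk2, a kinase gene that is also a p53 target, had the largest change of this list in each genotype, with a rise of at least 4.53-fold in p38WT (log2 change 2.82, measured means -1.33 and -4.15; limma adjusted p = 1.07e-05), a measured log2 change of 2.95 in p38DKI, where the unirradiated probe was well above background on 1 of 5 arrays (adjusted p = 5.43e-06) and at least 3.21-fold in p38DN (log2 change 2.98, measured means -1.38 and -4.36; adjusted p = 5.55e-06). Klf10, a zinc-finger repressor, rose in each genotype, by 0.78 in p38WT, 1.2 in p38DKI and 1.72 in p38DN (limma adjusted p = 0.0495, 0.00335 and 9.27e-05). Dusp6, a phosphatase of the ERK kinases, rose by 0.95, 0.84 and 0.76 (adjusted p = 0.000853, 0.00261 and 0.00537), and Ier5l by 0.77, 1.2 and 1.95 (adjusted p = 0.016, 0.000432 and 1.27e-06). Genes below are named for a genotype only where they were among its 3 largest called changes in a direction, so other genotypes may share them. Plk3 rose in p38DKI (1.36, SE 0.39, limma adjusted p = 0.00967), where irradiated mice spread far more than unirradiated ones (SD 1.22 against 0.0989). Nr4a1, an orphan nuclear receptor of non-classical monocytes and activated lymphocytes, was lower after irradiation in p38WT (-2.02, SE 0.617, limma adjusted p = 0.0158) and p38DKI (-1.68, adjusted p = 0.0392). Its irradiated mice spread widely (SD 2.2 and 1.04, against 0.332 and 0.343 unirradiated). In irradiated p38WT its probe was well above background on 4 of 5 arrays. Myc fell in p38WT (-1.13, limma adjusted p = 0.00384) and p38DKI (-1.06, adjusted p = 0.00605). Dusp2, a phosphatase of lymphocytes, fell in p38DKI (-1.37, limma adjusted p = 0.00218) and p38DN (-1.61, adjusted p = 0.000458), Sik1 in p38WT (-1.04, adjusted p = 0.00219) and Csrnp1 in p38DN (-0.6, adjusted p = 0.0365). Gadd45b was the only gene of this list to differ between irradiated p38DKI and p38WT blood (-0.91, limma adjusted p = 0.035). This 1 of 25 stands beside 4.51% of all genes called there, 3.36% being lower. The 844 calls over all genes in that comparison became 88 with array median scaling and 1 with normexp or slide as a fixed block. The split moved with scaling: in p38DKI 11 rose and 1 fell with array median scaling and 11 rose and 0 fell without scaling, and in p38WT 1 rose and 4 fell without scaling and 2 rose and 4 fell with the percentile over probes well above background on all arrays. With normexp correction 1 rose and 1 fell in p38WT, 3 and 1 in p38DKI and 2 and 0 in p38DN, and with slide as a fixed block 0 passed in p38WT and 0 in p38DKI. B and T cell markers fell beside Nr4a1, Myc and Dusp2. So did 2 of 5 monocyte markers in p38WT and in p38DKI, a list that holds Nr4a1 itself. The part of these markers in the falls was not tested.

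All 16 upstream factors and kinases were tested. In p38WT 2 rose and 0 fell, in p38DKI 1 rose and 3 fell, and in p38DN 6 rose and 1 fell, beside the same shares of all genes. In p38DKI the split was 4 higher and 1 lower with array median scaling and without scaling, and 0 higher and 5 lower with the percentile over probes well above background on all arrays, so it has no settled direction. Nab1, a corepressor of Egr proteins, rose in each genotype, by 1.4 (SE 0.304; limma adjusted p = 0.00112), 0.81 (adjusted p = 0.044) and 1.62 (adjusted p = 0.00024). Mapk3, the kinase ERK1, rose by 0.83 in p38WT (limma adjusted p = 0.0205) and in p38DN (adjusted p = 0.0199). Creb1, which binds the cyclic AMP response element, was lower in p38DKI (-0.8, limma adjusted p = 0.0162) and p38DN (-0.91, adjusted p = 0.00698). Srf, the serum response factor, was lower in p38DKI (-0.78, limma adjusted p = 0.00643), as was Rps6ka5, a kinase downstream of p38 and ERK that phosphorylates Creb1, at least 2.87-fold (measured means -4.09 and -2.27; adjusted p = 0.00215). Without the 4 arrays highest in liver markers, 3 of these genes rose and 2 fell in p38WT. Those 4 arrays were p38DKI irradiated or p38DN unirradiated, so the p38WT levels stayed the same and only the spread estimated over all groups changed. With normexp correction 0 passed in any genotype, with slide as a fixed block 0 in p38WT and 0 in p38DKI, without scaling 0 rose and 1 fell in p38WT, and with the deposited values 1 rose and 0 fell in p38WT and 1 rose and 1 fell in each of p38DKI and p38DN.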

How the data were processed

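Blood RNA of 30 mice was measured on 1-colour Agilent arrays. The deposited scanner files hold spot intensity values made with Agilent Feature Extraction 12.0.2, per the submitters' processing notes, with probe positions on mm9, per the file headers; the processed signal is background-subtracted within the array. The deposited value table holds log2 values on which scaling between arrays is not stated; for each array they differed from log2 processed signal by a constant, and they were used as an alternative. The series design states 5 independent experiments per group.

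From the intensity values, log2 processed signal was averaged over unflagged spots and each array's 75th percentile subtracted. Probes well above background on at least 4 of 5 arrays of a group with values on at least 20 arrays were kept (23614 probes, 18724 genes and unnamed features by the brightest probe). The 6 group means were fitted with limma 3.58.1 (R 4.3.3; 24 residual degrees of freedom), and p-values were adjusted by Benjamini-Hochberg over all genes. The number of arrays limits the precision. Tested on simulated data for the p38WT irradiation effect over 18724 genes, 6% of 50 genes changed by log2 0.5 were found, 38% by 1, 86% by 2 and 94% by 4, with 8 false calls. In the simulated data 18524 genes were unchanged, whereas 5076 genes were called in the real p38WT comparison. The p that passes after adjustment depends on that share, so these percentages do not give the power of the real comparisons. Correlations used 100000 permutations within groups. A bound on a fold uses the lowest signal well above background on each array of the dim group. Named were all members, up to 3 genes per direction, list and comparison with the largest change past the threshold, and the 3 genes most like each member. Members and lists were chosen with earlier results of these data known. Alternatives covered scaling, background (normexp with an offset of 50), filter, probe choice, spots, slide, replicate number, and leaving out arrays. Counts of the 3 related lists under these alternatives were added after seeing the data. A few of the genes this rule names are not reported here.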

Additional observations from a re-analysis of the deposited data

How the results depend on the processing

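For the 9 tested members, counts of calls with the replicate block were 4 in p38WT, 2 in p38DKI and 4 in p38DN, as without it, and 6 in unirradiated p38DN against p38WT, where Fos joined (-0.96, limma adjusted p = 0.031); it changed no other call. In p38DN same-numbered arrays shared a slide, but not every pair deviated together (correlations from -0.149 to 0.411); elsewhere numbers marked no shared slide, and correlations between doses ran from -0.216 to 0.397 and between genotypes from -0.313 to 0.301. In p38WT irradiation the 4 calls became 2 without scaling, 2 with normexp and 0 with slide as a fixed block. In p38DKI the 2 became 4, 0 and 0, and in p38DN the 4 became 0 with normexp. Calls over all genes fell as well, in p38WT from 5076 to 4219, 1334 and 163 in these settings. In p38DKI they went from 5867 to 4578, 1373 and 680, and in p38DN from 5228 to 430 with normexp. The 1 call between irradiated p38DKI and p38WT became 2 with slide as a random block and 0 with array median scaling, percentile over probes well above background on all arrays, quantile normalization, no scaling, normexp, no filter, kept outlier spots, deposited values, slide as a fixed block, without the liver-marked or heart-marked arrays, and with only the compared groups. Over all genes, the 844 calls between irradiated p38DKI and p38WT became 1 with normexp, slide as a fixed block or only the compared groups. Between p38DN and p38WT unirradiated, 5 became 2 with deposited values and 3 with the percentile over probes well above background on all arrays, normexp, or without liver-marked or heart-marked arrays. Irradiated, 2 (1 higher, 1 lower) became 2 higher and 0 lower with the percentile over probes well above background on all arrays, the deposited values or only the compared groups, 0 with normexp, 1 with quantile normalization, no scaling, no filter or without heart-marked arrays, and 4 with the stricter filter, slide as a random block or without liver-marked arrays. With normexp the calls over all genes between irradiated p38DN and p38WT fell from 8195 to 960. For the difference p38DN minus p38WT, 0 became 1 with the percentile over probes well above background on all arrays, no scaling or only the compared groups, and 2 without liver-marked arrays. Leaving out each mouse in turn gave 2 to 5 calls in p38WT, 2 to 3 in p38DKI, 3 to 4 in p38DN, 0 to 0 and 0 to 2 for p38DKI against p38WT (unirradiated and irradiated), 3 to 6 and 1 to 4 for p38DN against p38WT, and 0 to 0 for both differences. The only sign change of a called member was Egr2 in unirradiated p38DN against p38WT, 0.3 with normexp. The normexp offset of 50 lay above the Egr2 signals of both groups. Slide as a fixed block could not be fitted for p38DN against p38WT. The cause of these changes was not tested. Signals near background, as for Egr2 in unirradiated p38DN and Egr3, limit what could be measured, and 0 of 54 member and group sets held an outlying mouse by Dixon's test.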
